A study of Mus musculus with 16 samples.

Results

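The left ventricles of mice given angiotensin II (AngII) together with the nitric oxide synthase inhibitor L-NAME were compared with those of mice on L-NAME without the peptide. The comparison rests on 8 of the 16 samples of the series, the 4 labelled L-NAME+AngII and the 4 labelled L-NAME, taken by their treatment label and by no measured value. Expression was measured on Illumina BeadChip arrays. All 16 samples came from male C57BL6 mice that were 12 weeks old when they were assigned to a group. The L-NAME+AngII mice received AngII at 0.7 mg/kg/day for 4 weeks from a pump under the skin, together with L-NAME at 0.3 mg/ml and 1% NaCl in their drinking water for 5 weeks. The L-NAME mice received the same water for the same time and no AngII, so that both groups shared nitric oxide synthase inhibition and salt. Mice given AngII without L-NAME (4 samples) and Control mice (4 samples) gave the effect of the same AngII dose without L-NAME. The labels do not say whether these 2 groups drank salt. Each group carries the numbers 1 to 4 in the labels, which do not state that every number is a separate mouse, so p-values reflect the spread among these samples and that spread may be technical.

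AngII is a peptide hormone that acts mainly through the AT1 receptor to constrict vessels, to release aldosterone and to drive growth of cardiomyocytes and matrix production by fibroblasts. Nitric oxide, made in endothelium by nitric oxide synthase, relaxes vessels through cyclic GMP and opposes many of these actions, and L-NAME blocks its synthesis. In pressure-loaded hearts the genes known for their response are those of the extracellular matrix, the natriuretic peptides and fetal contractile proteins, repolarising ion channels, and the enzymes that burn fatty acids.

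Expression values were the authors' log2 levels, with the same median (6.90) for each array and values between 5.78 and 15.02. A probe was taken as above background when it exceeded 7.13, the 95th percentile of the probes for chemosensory receptor genes, which are not expected in the heart. The values carry the background signal, so a difference on this scale understates the change of a dim gene. Cardiomyocyte markers were bright in both groups. The mean level of 11 of them lay between 13.62 and 13.83 on the L-NAME+AngII arrays and between 13.75 and 13.83 on the L-NAME arrays. In the test 0 of the 11 passed. These markers do not separate ventricular from atrial muscle, and atrial markers are described below. In bulk tissue, fewer cells of a type and less RNA per cell cannot be told apart. L-NAME+AngII array 4 stood apart from all other arrays: its root mean square distance from the other 3 arrays of its group was 0.646 on the log2 scale, against 0.286 to 0.430 for the other 15 arrays of the series, each in its own group. On array 4 the erythroid markers (4 genes) averaged 12.44, against 10.14 to 10.89 on the other 3 arrays of the group, and 16 circadian clock genes averaged 10.70, against 9.79 to 10.02. The main results below are therefore given with and without that array. Arrays 1 and 2 of the groups also deviated together and against arrays 3 and 4. The number of arrays limits the precision of every value.

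Adding AngII to L-NAME changed 172 of 9119 genes (1.89%) at an adjusted p under 0.05 in the limma fit of all 16 arrays, 99 of them higher (1.09%) and 73 lower (0.801%). The rises were larger than the falls: the median log2 difference was 0.94 among genes that rose and -0.74 among genes that fell, and 43 genes rose and 15 fell by more than 2-fold. With the replicate number as a block the count was 262, with 135 higher and 127 lower, and 164 of the 172 genes were among them. Without L-NAME+AngII array 4 it was 216 (2.37%), with 135 higher and 81 lower; 137 genes were shared, which is 79.7% of the 172 and 63.4% of the 216. Fewer passed without L-NAME+AngII array 1 (104) or 3 (110) or without L-NAME array 1 (84), 2 (97), 3 (97) or 4 (82). A fit of the 8 compared arrays alone, with the spread taken from them only, called 51 genes, 39 higher and 12 lower. Of the 61 named genes that passed, 26 kept their call in that fit. A covariate for atrial muscle, explained below, left 67 calls, whereas weights for the arrays gave 478. Leaving out each of the 16 arrays in turn, 70 genes, 46 higher and 24 lower, passed every time. In 167 of the 172 genes the groups of 4 arrays did not overlap, against 10.3% of all genes tested (4.35% higher and 5.97% lower). The calls were made on these same arrays, so this separation is largely built in and gives no separate support. The counts of calls in the gene lists that follow stand beside these shares of all genes. The lists were chosen with earlier results of these data known, so a count above its share gives no separate support. Differences are L-NAME+AngII minus L-NAME on the log2 scale, with their SE.

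Dkk3, Angptl7 and Nox4 had the 3 highest rises. Dkk3, a secreted glycoprotein of the Dickkopf family, read 11.19, 10.89, 10.94 and 10.11 on the L-NAME+AngII arrays and 8.47, 7.71, 7.47 and 7.79 on the L-NAME arrays. The groups lay more than 1 log2 unit apart, with L-NAME+AngII array 4 the lowest of its group. Its log2 difference was 2.92 ± 0.32 (SE; adjusted p = 0.000393), a rise of 7.56-fold, and was 3.14 without array 4. A second Dkk3 probe gave 2.75 (adjusted p = 0.000582). Angptl7, a secreted protein of the angiopoietin-like family, read 12.73, 12.26, 12.10 and 10.46 with AngII added and 8.82, 8.29, 9.53 and 9.31 with L-NAME alone. Array 4 was again the lowest of the L-NAME+AngII group and still lay above all L-NAME arrays. The difference was 2.90 ± 0.55 (adjusted p = 0.0126), and 3.38 without array 4. Nox4, the NADPH oxidase that releases hydrogen peroxide, read 10.23, 9.998, 9.69 and 10.17 on the L-NAME+AngII arrays, against 7.81, 7.13, 6.76 and 7.09 on the L-NAME arrays. All 4 arrays with AngII added were bright, whereas 2 of the 4 L-NAME arrays were below background. Nox4 rose by 2.82 ± 0.39 (adjusted p = 0.00146) and by 2.77 without array 4.

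**Figure D1:**
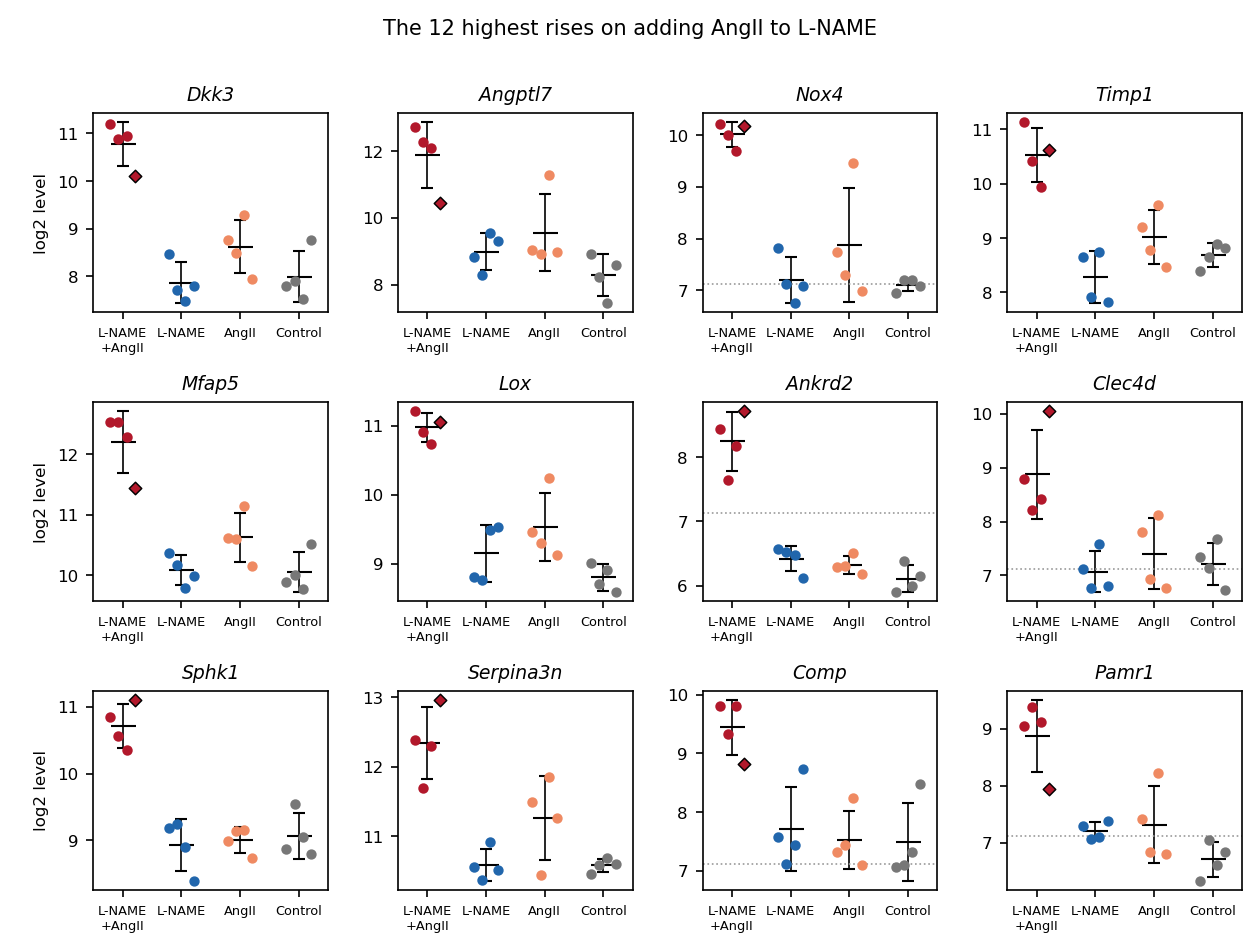
Log2 level on each array (points) with the group mean and SD (bars) for the 12 named genes with the highest rises among those that passed with groups that did not overlap (1 gene with a clone-type symbol and a rise of 1.74 is passed over); diamonds mark L-NAME+AngII array 4 and dotted lines the background level of 7.13. In all 12 panels the L-NAME+AngII arrays lie above the L-NAME arrays, by 2.92 for Dkk3 down to 1.66 for Pamr1.

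Timp1, the inhibitor of matrix metalloproteinases, read 11.14, 10.42, 9.95 and 10.63 with AngII added and 8.65, 7.91, 8.75 and 7.82 with L-NAME alone, with a difference of 2.25 ± 0.29 (adjusted p = 0.000867; 2.22 without array 4), and its second probe gave 2.18. Sphk1, the kinase that makes sphingosine 1-phosphate, read 10.84, 10.56, 10.35 and 11.11 on the L-NAME+AngII arrays and 9.18, 9.24, 8.90 and 8.38 on the L-NAME arrays. Here array 4 was the highest of its group. Its difference was 1.79 ± 0.21 (adjusted p = 0.000566; 1.66 without array 4). Ankrd2, a stretch-responsive ankyrin repeat protein of muscle, read 8.45, 7.65, 8.18 and 8.73 with AngII added, against 6.57, 6.52, 6.47 and 6.13 on the L-NAME arrays. All 4 L-NAME arrays were below background, which makes the rise a bound of at least 2.18-fold (adjusted p = 0.000359 with and 0.000250 without array 4). Pamr1, a secreted peptidase-domain protein, averaged 8.87 ± 0.64 with AngII added and 7.22 ± 0.15 with L-NAME alone (SD, n = 4 each), a difference of 1.66 ± 0.32 (adjusted p = 0.0134; 1.97 without array 4). Clec4d, a C-type lectin receptor of myeloid cells, averaged 8.87 ± 0.82 with AngII added and 7.07 ± 0.38 with L-NAME alone. Its difference of 1.81 ± 0.38 (adjusted p = 0.0254; 1.41 without array 4) did not pass when L-NAME+AngII array 1 or L-NAME array 1, 2 or 4 was left out (adjusted p up to 0.0818). The other genes named so far in these 2 paragraphs passed whichever array was left out.

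Promoter windows of called genes were searched for the motifs of factors that act downstream of growth signals in muscle: AP-1 (TGANTCA), the SRF-binding CArG box, and the TEAD-binding MCAT element (CATTCC), each on both strands. Sphk1, the LIM protein gene Fhl1 and the zinc finger gene Egr2 are shown because they rose and hold an AP-1 or a CArG match. The sequences are RefSeq windows (mouse build GRCm38.p6, plus strand of the chromosome for all 3) of the 250 bases before an annotated start, with matches in capitals.
Sphk1, chr11:116531587-116531836: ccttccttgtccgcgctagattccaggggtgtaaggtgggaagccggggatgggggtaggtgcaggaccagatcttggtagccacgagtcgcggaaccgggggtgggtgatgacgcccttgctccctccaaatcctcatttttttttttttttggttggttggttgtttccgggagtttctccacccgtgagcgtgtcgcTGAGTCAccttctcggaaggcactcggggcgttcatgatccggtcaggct
Fhl1, chrX:56779433-56779682: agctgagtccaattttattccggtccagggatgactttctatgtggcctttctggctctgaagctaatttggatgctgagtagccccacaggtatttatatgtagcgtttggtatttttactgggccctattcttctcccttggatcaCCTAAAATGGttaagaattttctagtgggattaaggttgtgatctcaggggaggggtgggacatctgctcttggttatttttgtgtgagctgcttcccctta
Egr2, chr10:67537619-67537868: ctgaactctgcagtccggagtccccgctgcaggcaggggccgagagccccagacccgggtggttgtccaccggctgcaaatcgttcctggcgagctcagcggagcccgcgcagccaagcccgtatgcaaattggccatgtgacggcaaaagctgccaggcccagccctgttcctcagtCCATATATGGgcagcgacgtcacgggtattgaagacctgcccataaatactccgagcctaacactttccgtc
In Sphk1 the AP-1 match begins 50 bases before the start; in Fhl1 the CArG match begins 102 bases and in Egr2 72 bases before it. Of the 5 Sphk1 windows 2 held AP-1, and 1 of 2 Fhl1 windows and 4 of 5 Egr2 windows held CArG. Windows of a gene can overlap: the 2 Sphk1 windows hold the same AP-1 site, and the Egr2 site shown recurs in overlapping windows.

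Of the genes that rose, 73 had windows, and 8 of them (11.0%) held an AP-1 match, against 2 of 58 genes that fell (3.45%) and 6.74% of 7429 genes tested. CArG matches were found in 2 of 73 risers (2.74%), in 2 of 58 fallers (3.45%) and in 1.80% of genes tested. MCAT matches were found in 20.5% of risers, 15.5% of fallers and 14.8% of genes tested. The windows searched ran from 250 bases before to 50 bases after each start, none of the 3 motifs can lie inside another, and 7.81% of all 32851 windows of the table held AP-1. A match describes these letters and shows no binding.

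Among the genes of collagen cross-linking and elastic fibres, 5 of 21 tested members rose and 0 fell, with a median log2 difference of 0.18, against -0.01 over all genes tested, and 7 rose without array 4. Mfap5, a glycoprotein of elastic microfibrils, read 12.54, 12.54, 12.29 and 11.44 on the L-NAME+AngII arrays, against 10.37, 10.16, 9.79 and 9.99 on the L-NAME arrays. Array 4 was the lowest of its group and lay above every L-NAME array. The difference was 2.12 ± 0.26 (adjusted p = 0.000566; 2.38 without array 4). Lox, the lysyl oxidase that cross-links collagen and elastin, read 11.22, 10.92, 10.73 and 11.05 with AngII added and 8.81, 8.77, 9.497 and 9.53 with L-NAME alone. All 4 L-NAME+AngII arrays were close together, and the difference was 1.83 ± 0.23 (adjusted p = 0.000867; 1.80 without array 4). Elastin itself (Eln) averaged 9.98 ± 0.21 with AngII added and 9.37 ± 0.058 with L-NAME alone, a smaller rise of 0.61 ± 0.11 (adjusted p = 0.00826; 0.70 without array 4). The microfibril genes Mfap4, with 1.68 ± 0.40 (adjusted p = 0.0435), and Mfap2, with 0.82 ± 0.18 (adjusted p = 0.0281; 0.94 without array 4), also rose. Mfap4 read 10.23, 10.42, 9.62 and 8.28 with AngII added and 8.32, 7.66, 7.88 and 7.98 with L-NAME alone, and array 4 lay within the range of the L-NAME arrays. Without that array the Mfap4 difference was 2.13 (adjusted p = 0.00176). The Mfap4 call was lost on leaving out any of 12 other arrays (adjusted p up to 0.116), and the Mfap2 call on leaving out L-NAME+AngII array 1, 2 or 3 or L-NAME array 1 or 3 (up to 0.0959). A second Mfap2 probe gave 0.49 (adjusted p = 0.285).

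Of 18 matricellular proteins and proteoglycans, 3 rose and 0 fell (median 0.20; 6 and 0 without array 4): the small proteoglycan biglycan (Bgn), the thrombospondin-family protein Comp, and the matricellular protein Ccn5. Bgn read 14.48, 14.41, 14.43 and 13.99 on the L-NAME+AngII arrays and 13.69, 13.60, 13.67 and 13.69 on the L-NAME arrays, a rise of 0.67 ± 0.12 (adjusted p = 0.0107; 0.78 without array 4) at a high level. Comp read 9.81, 9.33, 9.81 and 8.82 with AngII added and 7.57, 7.11, 7.44 and 8.74 with L-NAME alone. Array 4 of L-NAME was high and lay just under array 4 of L-NAME+AngII. The Comp difference was 1.73 ± 0.38 (adjusted p = 0.0338; 1.93 without array 4) and was lost on leaving out array 1, 2 or 3 of either group (adjusted p up to 0.100). Ccn5 rose by 1.07 ± 0.22 (adjusted p = 0.0227; 1.32 without array 4), and its call was lost without L-NAME+AngII array 1, 2 or 3 or L-NAME array 2, 3 or 4 (adjusted p up to 0.0761). Of 20 tested genes on the list of matrix proteases and inhibitors, 3 rose and 0 fell (median 0.37, with 5 and 0 without array 4). These were Timp1, the lysosomal collagenase cathepsin K (Ctsk) and the secreted serpin Serpinf1. Ctsk read 9.80, 9.98, 9.83 and 10.14 with AngII added, against 8.86, 8.69, 8.78 and 8.78 with L-NAME alone. Its 4 L-NAME+AngII arrays were tight and lay about 1 log2 unit above the L-NAME arrays, with a difference of 1.16 ± 0.14 (adjusted p = 0.000566; 1.09 without array 4). Serpinf1 rose by 0.91 ± 0.20 (adjusted p = 0.0334; 1.15 without array 4), a call lost without any single one of the 7 other arrays compared (adjusted p up to 0.0826). Mmp2, the gelatinase, did not pass with 1.03 (adjusted p = 0.0531) and passed without array 4 with 1.37 (adjusted p = 0.000233).

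The collagens depended on L-NAME+AngII array 4. With all arrays 0 of 18 fibrillar and basement membrane collagens passed, with a median difference of 0.20, and without array 4 it was 6 higher and 0 lower, with a median of 0.51. Those 6 were Col1a1, Col1a2, Col3a1, Col5a1, Col5a2 and Col16a1. Col1a1, the main fibrillar collagen chain, read 9.71, 10.50, 9.70 and 6.97 on the L-NAME+AngII arrays and 8.68, 7.96, 8.03 and 8.31 on the L-NAME arrays. Arrays 1 to 3 with AngII added lay above all L-NAME arrays, and array 4 was below background. The difference was 0.97 ± 0.52 (adjusted p = 0.377; 95% interval -0.14 to 2.09) with that array and 1.72 (adjusted p = 0.00201) without it. Col3a1 read 10.20, 10.65, 10.78 and 8.55 with AngII added and 9.63, 9.59, 10.19 and 9.56 with L-NAME alone, so that array 4 was the lowest of the 8. Its difference was 0.30 ± 0.36 (adjusted p = 0.740), against 0.80 (adjusted p = 0.0419) without array 4. Basement membrane chains had small differences: Col4a1 had 0.079, Col4a2 0.016 and Col18a1 0.22, and 0 of these 3 passed either way. Postn, a matricellular protein of activated fibroblasts, did not pass the filter on dim probes and was not tested. It averaged 7.12 ± 0.12 in L-NAME+AngII and 6.198 ± 0.42 in L-NAME (SD, n = 4 each). The L-NAME+AngII arrays read 7.16, 7.14, 7.22 and 6.95 and the L-NAME arrays 6.81, 6.04, 5.88 and 6.07, without overlap. Only L-NAME+AngII arrays 1, 2 and 3 lay above background, and only just.

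Signalling and cell-surface genes that act on the matrix gave single calls. Of 26 genes of TGF-beta family signalling, 1 rose and 0 fell (median 0.12; 3 and 0 without array 4): the type I receptor Tgfbr1 read 11.93, 11.93, 11.95 and 11.83 on the L-NAME+AngII arrays and 11.26, 10.91, 11.05 and 11.24 on the L-NAME arrays, a difference of 0.79 ± 0.11 (adjusted p = 0.00124; 0.82 without array 4). Its second probe gave 0.91 (adjusted p = 0.0866). The ligand Tgfb1 had a difference of -0.14 (adjusted p = 0.860; 0.11 without array 4). Tgfb2 read 9.60, 8.88, 9.39 and 8.62 with AngII added and 8.52, 8.52, 8.54 and 8.31 with L-NAME alone, and although the groups did not overlap it passed only without array 4, with 0.65 (adjusted p = 0.110) and 0.81 (adjusted p = 0.0291). Connective tissue growth factor (Ccn2), a classical TGF-beta and AngII target, did not pass. It averaged 14.78 ± 0.15 with AngII added and 14.83 ± 0.099 with L-NAME alone. The difference was -0.056 ± 0.11 (adjusted p = 0.865), and -0.030 without array 4. Both means lay near the highest value of the arrays, 15.02, and how far the probe could still respond there was not tested. The integrin list held 14 tested genes, of which 1 rose and 0 fell (median 0.01, with 2 and 0 without array 4). The riser was Itgbl1, a secreted integrin beta-like protein and not an integrin subunit. It had 1.49 ± 0.20 (adjusted p = 0.00132), and 1.72 without array 4. Itgb6, the epithelial integrin subunit that activates latent TGF-beta, did not pass with -1.46 ± 0.45 (adjusted p = 0.113; -1.08 without array 4), and its other 2 probes gave -0.092 (adjusted p = 0.925) and -1.57 (adjusted p = 0.113). Among 12 secreted Wnt antagonists and angiopoietin-family genes, Dkk3 and Angptl7 were the 2 that rose, and the Wnt antagonist Sfrp2 passed only without array 4, with 1.48, against 0.97 with it.

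Of 17 fibroblast markers 3 rose and 0 fell (median 0.25), with 6 higher without array 4. Those 3 were Mfap5, Mfap4 and Mgp, the matrix Gla protein, which read 14.66, 14.81, 14.74 and 14.82 on the L-NAME+AngII arrays and 13.55, 13.55, 13.57 and 13.54 on the L-NAME arrays (difference 1.21 ± 0.13, adjusted p = 0.000393; 1.18 without array 4). The mean level of the 17 markers ranged from 10.51 to 11.39 on the L-NAME+AngII arrays, where 10.51 was array 4, and from 10.52 to 10.69 on the L-NAME arrays. Pdgfra, which defines the lineage, had 0.25 (adjusted p = 0.392; 0.41 without array 4) and Tcf21 had -0.17 (adjusted p = 0.796; 0.058 without array 4). The fibroblast markers Ddr2, Cthrc1 and Islr were too dim to be tested. The part of fibroblast number in the matrix results was not tested.

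Of 14 atrial markers, 2 rose, Dkk3 and the myosin light chain gene Myl1, and 0 fell (median 0.13; again 2 and 0 without array 4). Their mean level ran from 9.82 to 10.49 on the L-NAME+AngII arrays and from 9.48 to 9.72 on the L-NAME arrays, so the groups did not overlap. The mean of the atrial muscle genes Myl4, Myl7 and Sln was 9.17, 8.12, 10.55 and 7.81 with AngII added and 7.68, 7.24, 7.09 and 7.36 with L-NAME alone, while Control array 4 had 9.78. Myl7 lay below background on all 4 L-NAME arrays, and Bmp10, Kcnj5 and Tbx5 were too dim to be tested. With that mean as a covariate 67 genes passed, 58 of them among the 172. The mean was itself higher on every L-NAME+AngII array than on any L-NAME array. The covariate thus shares part of the difference between the groups, and calls kept or lost with it cannot decide the part of atrial tissue. Dkk3 then had 2.43 (adjusted p = 0.00670), Nox4 2.90 (0.0176), Mfap5 1.80 (0.0134), Lox 2.01 (0.00670) and Sphk1 2.03 (0.00470), with adjusted p in brackets. Angptl7 and Myl1 no longer passed, with 2.44 (0.105) and 0.72 (0.108). On Control array 4 Dkk3 read 8.77, against 7.53 to 7.90 on the other Control arrays. Myl1 also lost its call without L-NAME+AngII array 1, 2 or 3 or L-NAME array 1, 2 or 4 (up to 0.0748). The part of atrial tissue in the results was not tested.

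The natriuretic peptides, Myh7, Acta1 and Ankrd1 did not pass the test when AngII was added to L-NAME, while 2 other genes of the hypertrophy list rose. Of 21 hypertrophy and fetal genes, 2 rose and 0 fell (median 0.14; 3 and 0 without array 4). Fhl1, a LIM protein of muscle that responds to stretch, read 14.04, 13.86, 14.11 and 14.00 on the L-NAME+AngII arrays and 13.21, 13.17, 13.47 and 13.26 on the L-NAME arrays, a difference of 0.73 ± 0.11 (adjusted p = 0.00381; 0.73 without array 4). Its second probe gave 0.79 (adjusted p = 0.0131). Ankrd2, described above, was the other gene. Nppa, which encodes atrial natriuretic peptide, averaged 14.66 ± 0.14 with AngII added and 14.51 ± 0.13 with L-NAME alone, against 14.09 ± 0.31 in Control. Its difference was 0.15 ± 0.14 (adjusted p = 0.641; 95% interval -0.14 to 0.45; 0.11 without array 4). Nppb, the B-type peptide, averaged 14.72 ± 0.18 with AngII added and 14.71 ± 0.11 with L-NAME alone, with 0.013 ± 0.12 (adjusted p = 0.977; interval -0.24 to 0.27; 0.078 without array 4). Both lay near the highest value of the arrays, 15.02, and how far the probes could still respond there was not tested. Myh7, the fetal myosin heavy chain, read 10.30, 9.29, 8.76 and 7.21 on the L-NAME+AngII arrays and 9.27, 9.38, 8.84 and 8.23 on the L-NAME arrays, so that the L-NAME+AngII arrays spread over more than 3 log2 units with array 4 lowest (difference -0.041 ± 0.47, adjusted p = 0.981; 0.52 without array 4). Skeletal actin (Acta1) read 14.17, 14.07, 14.18 and 14.24 with AngII added and 14.36, 14.24, 14.28 and 14.41 with L-NAME alone, and did not pass with -0.15 ± 0.15 (adjusted p = 0.669; -0.18 without array 4). Ankrd1 had 0.11 ± 0.10 (adjusted p = 0.657; 0.16 without array 4) and 0.37 (adjusted p = 0.214) by a second probe. The calcineurin target Rcan1 had 0.39 ± 0.18 (adjusted p = 0.290; 0.57 without array 4) and 0.95 (adjusted p = 0.275) by a second probe.

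**Figure D2:**
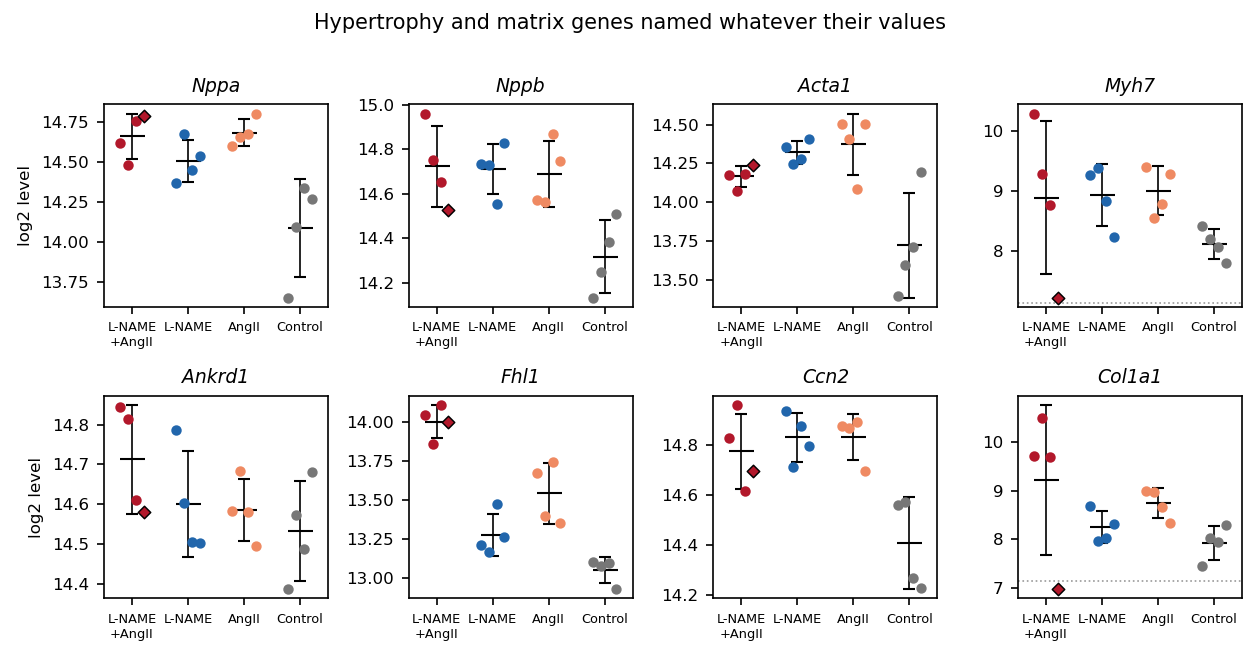
Log2 level on each array (points) with group mean and SD (bars) for 8 hypertrophy and matrix genes; diamonds mark L-NAME+AngII array 4 and the dotted line the background level. Fhl1 is higher on all 4 L-NAME+AngII arrays than on the L-NAME arrays, Nppa and Nppb overlap between these groups, and Col1a1 and Myh7 are lowest on array 4.

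Contractile and calcium handling genes gave 1 call each. Of 22 sarcomere genes 0 rose and 1 fell (median 0.06; again 0 and 1 without array 4): Mylk3, the cardiac myosin light chain kinase, averaged 12.02 ± 0.19 with AngII added and 12.59 ± 0.17 with L-NAME alone, a difference of -0.57 ± 0.12 (adjusted p = 0.0297; -0.62 without array 4), which did not pass without L-NAME+AngII array 2 or 3 or L-NAME array 1, 2 or 3 (up to 0.108). Its other 2 probes gave -0.62 (adjusted p = 0.0417) and -0.19 (adjusted p = 0.821). Myh6, the adult mouse myosin heavy chain, had 0.079 ± 0.11 (adjusted p = 0.779; 0.12 without array 4), and a second probe gave -0.82 (adjusted p = 0.245). Of 22 calcium handling genes 0 rose and 1 fell (median -0.01; again 0 and 1 without array 4). Hrc, a calcium-binding protein of the sarcoplasmic reticulum, averaged 14.09 ± 0.12 with AngII added and 14.50 ± 0.063 with L-NAME alone, a small difference of -0.41 ± 0.089 (adjusted p = 0.0300; -0.37 without array 4) that was lost without L-NAME+AngII array 2 or 3 or any L-NAME array (up to 0.110). The calcium pump Atp2a2 had -0.015 ± 0.096 (adjusted p = 0.963; interval -0.22 to 0.19; -0.024 without array 4), and 0.044 by a second probe (adjusted p = 0.931).

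Several ion channel genes fell. Of 23 channel subunits and connexins 5 fell and 0 rose, with a median of -0.26. Positive differences were found in 3 of the 23, against 48% of all genes tested. Without array 4 the list again had 5 lower and 0 higher. Kcnd2, the Kv4.2 subunit of the transient outward potassium current, read 7.09, 7.38, 7.41 and 6.94 on the L-NAME+AngII arrays and 8.15, 7.80, 8.39 and 8.13 on the L-NAME arrays. With AngII added 2 of 4 arrays were above background. The difference was -0.91 ± 0.15 (adjusted p = 0.00558; -0.82 without array 4). Scn4b, the beta-4 subunit of the sodium channel, read 10.61, 10.49, 10.87 and 9.998 with AngII added and 11.28, 11.27, 11.28 and 11.25 with L-NAME alone. The L-NAME arrays agreed to within 0.03, and all L-NAME+AngII arrays lay below them (difference -0.78 ± 0.15; adjusted p = 0.0134; -0.62 without array 4). Kcnv2, a modifier subunit of potassium channels, read 9.10, 9.21, 9.33 and 7.66 with AngII added and 10.44, 10.07, 9.73 and 10.18 with L-NAME alone, and fell by 1.28 ± 0.30 (adjusted p = 0.0399). Array 4 was far below the rest of its group, and the difference without it was -0.89 (adjusted p = 0.0198); the Kcnv2 call was lost without L-NAME+AngII array 1, any L-NAME array or any of 6 arrays of the other groups (up to 0.132). Abcc9, the SUR2 subunit of ATP-sensitive potassium channels, is also a pericyte marker. It fell by 0.76 ± 0.16 (adjusted p = 0.0254), and had -0.65 without array 4. Its other 2 probes gave -0.89 (adjusted p = 0.0101) and -0.67 (adjusted p = 0.218). Its call was lost without L-NAME+AngII array 1 or L-NAME array 1 or 4 (up to 0.0947). It was also the 1 of 12 smooth muscle and pericyte markers that fell, while 0 rose. The mean level of those 12 was 9.93 to 10.48 with AngII added and 10.37 to 10.56 with L-NAME alone, with array 4 the lowest, and the part of pericytes was not tested. The anoctamin gene Ano10, the 5th of these, is described next.

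**Figure D3:**
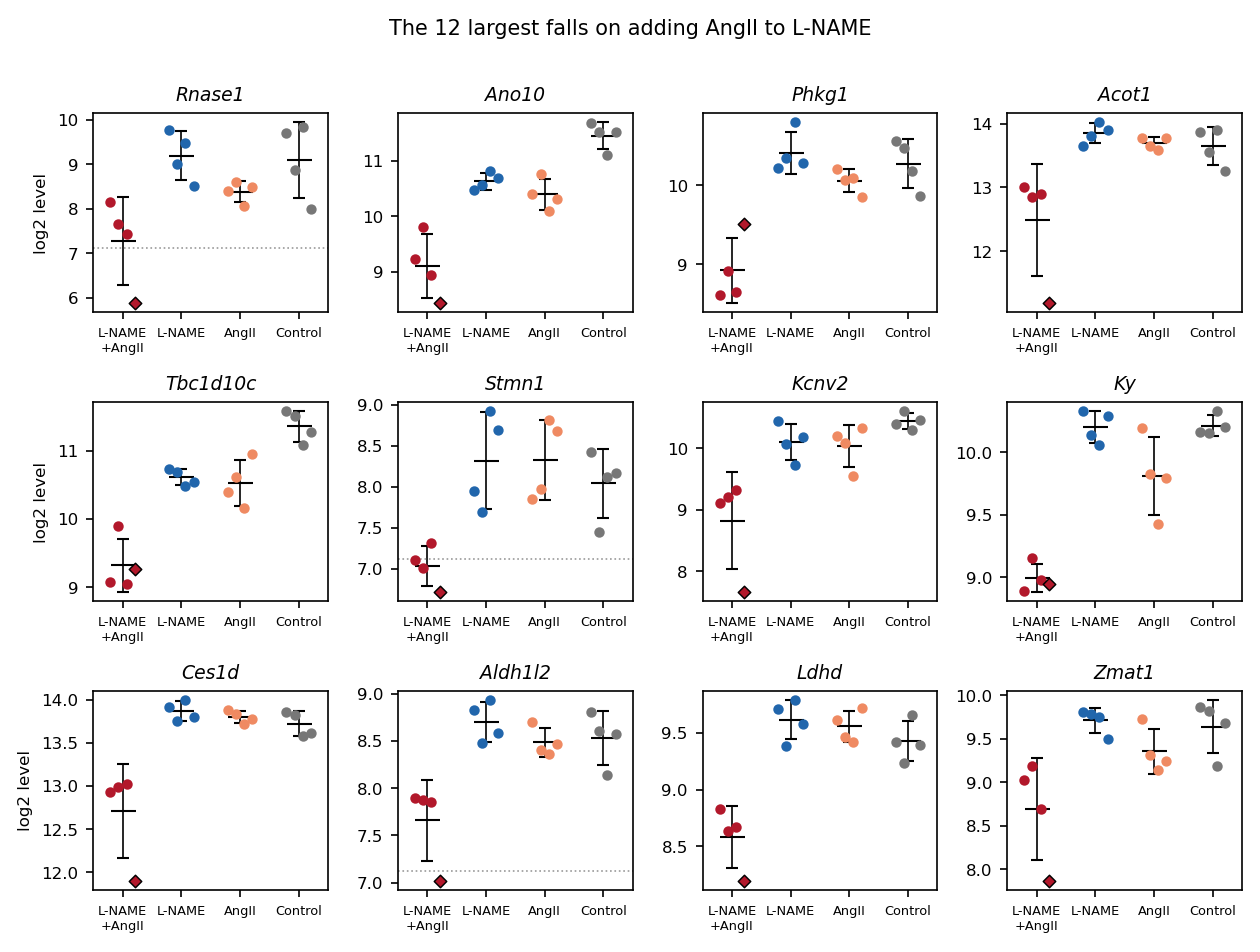
Log2 level on each array (points) with group mean and SD (bars) for the 12 genes with the largest falls among those that passed with groups that did not overlap; diamonds mark L-NAME+AngII array 4 and dotted lines the background level. Array 4 is far below its group for Acot1, Kcnv2, Ces1d and Aldh1l2, whereas Ky, Phkg1 and Tbc1d10c are low on all 4 L-NAME+AngII arrays.

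Among the 12 largest falls with groups that did not overlap, those of Ano10, Tbc1d10c, Phkg1 and Ky passed whichever array was left out. Ano10, a TMEM16-family membrane protein, read 9.23, 9.81, 8.94 and 8.43 on the L-NAME+AngII arrays and 10.47, 10.56, 10.81 and 10.68 on the L-NAME arrays, with a difference of -1.53 ± 0.23 (adjusted p = 0.00343; -1.30 without array 4). Control arrays read 11.68, 11.53, 11.10 and 11.51, so the L-NAME arrays already lay below Control. Tbc1d10c, or carabin, an inhibitor of calcineurin and Ras signalling, had the same order of groups. It read 9.07, 9.89, 9.04 and 9.26 with AngII added, 10.73, 10.68, 10.49 and 10.54 with L-NAME alone and 11.58, 11.50, 11.08 and 11.27 in Control, and fell by 1.29 ± 0.20 (adjusted p = 0.00326; -1.27 without array 4). Phkg1, the catalytic subunit of muscle phosphorylase kinase, which starts glycogen breakdown, read 8.61, 8.91, 8.65 and 9.51 with AngII added and 10.21, 10.34, 10.80 and 10.27 with L-NAME alone. Here array 4 was the highest of its group and still below every L-NAME array (difference -1.49 ± 0.20, adjusted p = 0.00132; -1.68 without array 4). Ky, a peptidase-like protein needed for skeletal muscle integrity, read 8.89, 9.16, 8.98 and 8.95 with AngII added and 10.33, 10.14, 10.06 and 10.29 with L-NAME alone. Both groups were tight, and the difference was -1.21 ± 0.14 (adjusted p = 0.000393; -1.20 without array 4).

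Other large falls lost their call when some arrays were left out, or had a probe of the same gene that differed. Rnase1, a secreted ribonuclease, read 8.16, 7.66, 7.43 and 5.88 on the L-NAME+AngII arrays and 9.77, 9.02, 9.48 and 8.51 on the L-NAME arrays. Its difference of -1.91 ± 0.46 was the largest fall (adjusted p = 0.0454), but it was -1.45 (adjusted p = 0.0778) without array 4, and the call was lost without any of 12 other arrays (up to 0.146). Stmn1, the microtubule-destabilising protein stathmin, averaged 7.04 ± 0.25 with AngII added and 8.32 ± 0.59 with L-NAME alone, with -1.28 ± 0.29 (adjusted p = 0.0389) and 1 of 4 L-NAME+AngII arrays above background. It did not pass without array 4 (-1.18, adjusted p = 0.0798) or without any of 7 other arrays (up to 0.123). Zmat1, a zinc finger gene, fell by 1.02 ± 0.24 (adjusted p = 0.0435; -0.74 without array 4) and lost its call without any of 11 arrays (up to 0.124). Aldh1l2, a mitochondrial enzyme of folate metabolism, fell by 1.05 ± 0.19 (adjusted p = 0.0107; -0.83 without array 4), while its other probe gave 0.33 (adjusted p = 0.848), so the probes disagreed.

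Genes of fatty acid use were mostly lower with AngII added, and 4 of them passed the test. Of 47 genes of fatty acid uptake, storage and oxidation, 4 fell and 0 rose. In 7 of the 47 the difference was positive, against 48% of all genes tested. The median was -0.35, against -0.01 over all genes tested, and without array 4 it was -0.26 with 7 lower and 0 higher. The mean level of the 47 genes was 11.87, 11.75, 11.91 and 11.45 on the L-NAME+AngII arrays and 12.13, 12.07, 12.16 and 12.13 on the L-NAME arrays, so the groups did not overlap and array 4 was the lowest. Ces1d, a carboxylesterase that hydrolyses triacylglycerol, read 12.93, 12.99, 13.02 and 11.90 with AngII added and 13.91, 13.75, 14.00 and 13.80 with L-NAME alone, a difference of -1.16 ± 0.20 (adjusted p = 0.00618; -0.88 without array 4). Acot1, the cytosolic acyl-CoA thioesterase, read 13.01, 12.85, 12.90 and 11.19 with AngII added and 13.65, 13.81, 14.03 and 13.89 with L-NAME alone. Its difference was -1.36 ± 0.30 (adjusted p = 0.0351) and -0.92 (adjusted p = 0.00342) without array 4, and the call was lost without any 1 of the L-NAME arrays (up to 0.101). Its second probe gave -1.34 (adjusted p = 0.0879). Slc22a5, the carnitine transporter OCTN2, read 11.07, 11.09, 10.87 and 10.58 on the L-NAME+AngII arrays and 11.44, 11.48, 11.65 and 11.76 on the L-NAME arrays. It fell by 0.68 ± 0.13 (adjusted p = 0.0107; -0.57 without array 4), and its other 2 probes gave -0.62 (adjusted p = 0.0754) and -0.16 (adjusted p = 0.669). Fitm2, which partitions fat into lipid droplets, fell by 0.59 ± 0.11 (adjusted p = 0.0107; -0.52 without array 4).

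The enzymes best known for fatty acid oxidation did not pass with all arrays. Cpt1b, the muscle carnitine palmitoyltransferase, read 14.13, 14.02, 13.89 and 13.38 with AngII added and 14.21, 14.10, 14.12 and 14.16 with L-NAME alone (difference -0.29 ± 0.15, adjusted p = 0.365; -0.13 without array 4), and a second probe gave -0.37 (adjusted p = 0.353). Cpt2 had -0.89 (adjusted p = 0.113) and passed without array 4 with -0.49 (adjusted p = 0.0353). Acadl, the long-chain acyl-CoA dehydrogenase, had -0.49 (adjusted p = 0.269; -0.40 without array 4). Hadh read 8.98, 8.99, 9.06 and 9.67 with AngII added and 9.81, 9.85, 9.53 and 9.83 with L-NAME alone, so that array 4 was the highest L-NAME+AngII array, and had -0.58 ± 0.19 (adjusted p = 0.145) with and -0.74 (adjusted p = 0.0456) without it, while its other probe gave -0.08 (adjusted p = 0.880). Pdk4, the kinase that switches off pyruvate dehydrogenase, read 14.72, 14.59, 14.82 and 11.85 on the L-NAME+AngII arrays and 14.49, 14.61, 14.74 and 14.76 on the L-NAME arrays, and its difference of -0.66 (adjusted p = 0.526) came from array 4 and was 0.058 without it. The regulators Ppargc1a, with -0.23 ± 0.11 (adjusted p = 0.337; -0.24 without array 4), and Esrra, with -0.21 ± 0.11 (adjusted p = 0.344; -0.23 without array 4), did not pass.

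Other metabolic lists held a few falls. Of 35 genes of glucose uptake, glycolysis and glycogen, 2 fell and 0 rose (median -0.06; 2 and 2 without array 4): Phkg1 and Ldhd, the mitochondrial D-lactate dehydrogenase. Ldhd read 8.83, 8.64, 8.67 and 8.19 with AngII added, against 9.71, 9.39, 9.79 and 9.58 with L-NAME alone. The difference was -1.03 ± 0.14 (adjusted p = 0.00146), and -0.90 without array 4. Its other 2 probes did not pass, with -0.57 (adjusted p = 0.157) and -0.91 (adjusted p = 0.0738). In the TCA cycle and pyruvate dehydrogenase list 1 of 26 genes fell and 0 rose (median -0.17), namely Pdp2, a pyruvate dehydrogenase phosphatase, with -0.53 ± 0.11 (adjusted p = 0.0254; -0.61 without array 4) and -0.70 (adjusted p = 0.0294) by a second probe. Among 21 genes of branched-chain amino acid, ketone and creatine metabolism 2 fell and 1 rose (median -0.14; 2 and 0 without array 4). Bckdha, a subunit of the branched-chain keto acid dehydrogenase, fell by 0.54 ± 0.12 (adjusted p = 0.0302; -0.52 without array 4) and Pcca, of propionyl-CoA carboxylase, fell by 0.503 ± 0.12 (adjusted p = 0.0391). Without array 4 Pcca had -0.45 (adjusted p = 0.0682), and its second probe gave -0.39 (adjusted p = 0.219). The ketone body enzyme Bdh1 rose by 0.55 ± 0.13 (adjusted p = 0.0487; 0.48 without array 4), which was lost without any single one of 15 arrays (up to 0.146). Slc25a42, the mitochondrial coenzyme A carrier, was the 1 of 42 carrier and import genes that fell. It read 9.10, 8.87, 8.85 and 8.89 on the L-NAME+AngII arrays and 9.87, 9.73, 9.67 and 9.85 on the L-NAME arrays (difference -0.85 ± 0.14, adjusted p = 0.00461; -0.84 without array 4). Pink1, the kinase of mitochondrial quality control, was the 1 of 31 genes of mitochondrial biogenesis and dynamics that fell, with a difference of -0.58 ± 0.12 (adjusted p = 0.0218; -0.54 without array 4), and did not pass without L-NAME array 1 or 3 (up to 0.0739). A second Pink1 probe gave -0.44 (adjusted p = 0.201). The Pdp2 call was lost without any of 6 arrays (up to 0.0949), the Bckdha call without any of 5 (up to 0.101) and the Pcca call without any of 11 (up to 0.123).

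Respiratory chain and mitochondrial ribosome genes gave 0 calls. The limma fit called 0 of 38 complex I genes (median -0.04), 0 of 46 genes of complexes II to V (median 0.00) and 0 of 69 mitochondrial ribosomal proteins (median 0.00), with and without array 4. The mean level of the complex I genes was 13.29 to 13.43 on the L-NAME+AngII arrays and 13.35 to 13.41 on the L-NAME arrays, and the groups overlapped. Ndufab1, which is both a complex I subunit and the mitochondrial acyl carrier protein, averaged 7.81 ± 0.24 with AngII added and 8.08 ± 0.10 with L-NAME alone, with -0.27 ± 0.14 (adjusted p = 0.368; -0.27 without array 4). For these 3 lists and 4 others (endoplasmic reticulum and heat shock chaperones, clock genes, cell cycle genes and endothelial markers) there were 0 calls in either direction. There were also 0 calls among 15 adrenergic receptor and G protein genes (median -0.11; 1 lower without array 4), and among the few tested markers of lymphocytes and granulocytes (4), erythroid cells (4), adipocytes (2), skeletal muscle (6), nerve and Schwann cells (2) and epicardium (4).

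**Figure D4:**
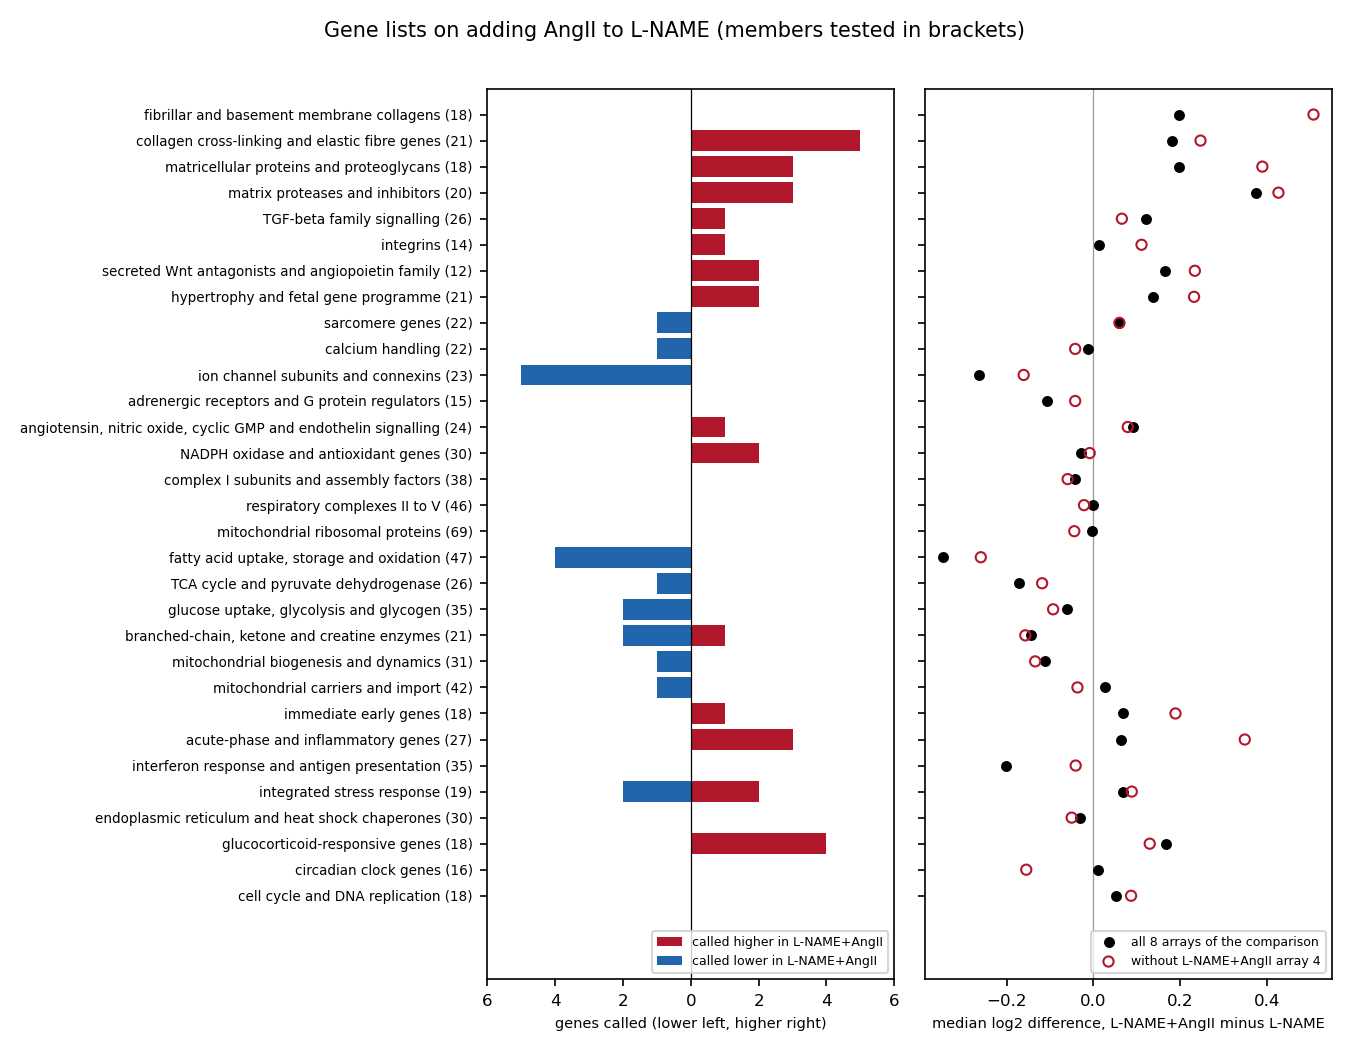
Gene lists with the number of members called higher or lower in L-NAME+AngII (left) and the median log2 difference, L-NAME+AngII minus L-NAME (right), with all 8 arrays of the comparison (filled) and without L-NAME+AngII array 4 (open). Matrix lists have calls on the higher side, ion channel and fatty acid lists on the lower side, and the collagen median moves from 0.20 to 0.51 when array 4 is left out.

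Among genes of the angiotensin, nitric oxide and endothelin pathways, endothelin itself rose. Of 24 tested genes 1 rose and 0 fell (median 0.09; 3 and 0 without array 4). Edn1, the precursor of the vasoconstrictor endothelin-1, read 9.32, 9.42, 9.12 and 9.85 on the L-NAME+AngII arrays and 8.92, 8.55, 8.45 and 8.60 on the L-NAME arrays. All L-NAME+AngII arrays lay above the L-NAME arrays, by 0.80 ± 0.15 on average (adjusted p = 0.0107; 0.66 without array 4), yet Control arrays read 9.20, 9.25, 9.16 and 9.44, within the range of the L-NAME+AngII arrays. The AngII receptor gene Agtr1a averaged 11.52 ± 0.15 with AngII added and 11.62 ± 0.16 with L-NAME alone, with -0.10 ± 0.11 (adjusted p = 0.715; -0.14 without array 4), and endothelial nitric oxide synthase (Nos3) had 0.091 ± 0.13 (adjusted p = 0.791; 0.21 without array 4), with 0.12 and -0.18 for its other 2 probes. Without array 4 the endothelin B receptor Ednrb, with 0.76 (adjusted p = 0.00844), and Ddah1, which degrades endogenous inhibitors of nitric oxide synthase, with 1.504 (adjusted p = 0.00572), also passed. With all arrays these 2 had 0.51 (adjusted p = 0.215) and 1.08 (adjusted p = 0.133). Ace was too dim to be tested.

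Among 30 NADPH oxidase and antioxidant genes 2 rose and 0 fell (median -0.03; 2 and 1 without array 4), Nox4 and the glutathione peroxidase Gpx1. Gpx1 read 13.63, 13.96, 13.68 and 14.04 with AngII added and 13.15, 13.32, 12.98 and 13.02 with L-NAME alone, and the Control arrays, at 13.40, 13.61, 13.44 and 13.64, lay between them and overlapped the lower L-NAME+AngII arrays. Its difference was 0.71 ± 0.12 (adjusted p = 0.00558; 0.64 without array 4). The phagocyte oxidase subunit Cyba had 0.12 (adjusted p = 0.766; 0.071 without array 4), and the antioxidant genes Sod1 (-0.057), Sod2 (-0.11) and Cat (-0.48) did not pass. Cybb, Nox1 and Ncf1 were too dim to be tested.

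A few inflammatory and stress genes rose. Of 27 acute-phase and inflammatory genes 3 rose and 0 fell (median 0.06; 2 and 1 without array 4). Serpina3n, an acute-phase serpin, read 12.39, 11.69, 12.30 and 12.96 on the L-NAME+AngII arrays and 10.56, 10.37, 10.92 and 10.51 on the L-NAME arrays, a difference of 1.75 ± 0.27 (adjusted p = 0.00402; 1.54 without array 4). Lcn2, the iron-siderophore binding protein lipocalin 2, read 10.52, 8.57, 9.54 and 10.12 with AngII added and 7.71, 7.77, 8.94 and 8.04 with L-NAME alone, so that 1 L-NAME+AngII array lay inside the L-NAME range. Its difference of 1.57 ± 0.38 (adjusted p = 0.0478) did not pass without array 4 (1.43, adjusted p = 0.103) or without any of 11 other arrays (up to 0.146). Nfkbia, the inhibitor of NF-kappa-B, rose by 0.97 ± 0.23 (adjusted p = 0.0399) and did not pass without array 4 (0.79, adjusted p = 0.0810) or any of 8 other arrays (up to 0.124). Of 35 interferon and antigen presentation genes 0 rose and 0 fell, with a median of -0.20 and 9 positive differences (48% of all genes). Their mean level on array 4 was 8.96, against 9.59 to 9.91 on the other L-NAME+AngII arrays and 9.504 to 9.93 on the L-NAME arrays, and without it the median was -0.04 and 1 gene passed, lower.

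Lgals3, the macrophage lectin galectin-3, was the 1 of 13 macrophage markers that rose, and 0 fell (median 0.20; again 1 and 0 without array 4). It read 11.63, 11.40, 10.92 and 11.94 with AngII added and 10.12, 10.17, 9.35 and 9.79 with L-NAME alone (difference 1.61 ± 0.24, adjusted p = 0.00288; 1.45 without array 4). The mean level of the 13 markers was 9.83 to 10.37 on the L-NAME+AngII arrays and 9.60 to 9.93 on the L-NAME arrays, which overlapped. The lineage genes Adgre1 (0.070), Cd163 (-0.13) and C1qa (0.057) did not pass, Ccr2, Fcgr1 and Itgam were too dim, and the part of macrophage number was not tested. The granulocyte genes S100a8 and S100a9 had 1.51 (adjusted p = 0.121) and 1.13 (adjusted p = 0.266).

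The integrated stress response list split, with 2 of 19 genes higher and 2 lower (median 0.07; 2 and 1 without array 4). Nupr1, a stress-induced chromatin protein, read 10.54, 10.88, 10.36 and 10.24 on the L-NAME+AngII arrays and 8.95, 8.96, 8.76 and 8.82 on the L-NAME arrays, a rise of 1.63 ± 0.27 (adjusted p = 0.00532). Ddit4, an inhibitor of mTORC1, rose by 1.12 ± 0.16 (adjusted p = 0.00197), and both had nearly the same difference without array 4, at 1.72 and 1.11. Aldh1l2 and the lipoprotein receptor Vldlr fell, and Vldlr fell by 0.48 ± 0.11 (adjusted p = 0.0372). Without array 4 Vldlr had -0.41 (adjusted p = 0.0622), and its call was also lost without any of 7 other arrays (up to 0.115). The other 4 Vldlr probes gave -0.60 to -0.50, and 2 of them passed. Atf4, with 0.65 (adjusted p = 0.196), and Ddit3, with 0.91 (adjusted p = 0.275), did not pass. Of 18 glucocorticoid-responsive genes 4 rose and 0 fell (median 0.17; 2 and 0 without array 4): Lcn2, the EGFR inhibitor Errfi1, the kinase Map3k6 and the kinase Sgk1. Errfi1 averaged 12.39 ± 0.23 with AngII added and 11.57 ± 0.10 with L-NAME alone, with 0.83 ± 0.15 (adjusted p = 0.0107; 0.84 without array 4), and passed whichever array was left out. Sgk1, also an aldosterone target, read 13.74, 13.68, 13.92 and 14.13 with AngII added and 13.43, 13.29, 13.28 and 13.36 with L-NAME alone, with 0.53 ± 0.11 (adjusted p = 0.0214; 0.44 without array 4), a call lost without L-NAME+AngII array 3 or L-NAME array 2, 3 or 4 (up to 0.0660). Map3k6 had 0.94 ± 0.21 (adjusted p = 0.0382) and 0.86 (adjusted p = 0.0768) without array 4, a call also lost without any of 7 other arrays (up to 0.126). Other members such as Fkbp5 (0.76), Tsc22d3 (0.54) and Dusp1 (-0.090) did not pass. Of 18 immediate early genes 1 rose, the zinc finger factor Egr2, and 0 fell (median 0.07; 2 and 0 without array 4). Egr2 read 9.24, 9.48, 9.49 and 8.12 with AngII added and 7.93, 7.56, 7.78 and 8.09 with L-NAME alone, so that array 4 lay near the L-NAME arrays. Its difference was 1.24 ± 0.29 (adjusted p = 0.0394) and 1.56 (adjusted p = 0.00176) without array 4, and it was lost without any of 10 other arrays (up to 0.107).

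The same genes were compared between AngII and Control mice, which had no L-NAME. The group means of these 8 arrays share no array with the comparison on L-NAME, but both comparisons take the spread from the fit of all 16 arrays. For AngII minus Control limma called 0 of 9119 genes (56 with the replicate block, and 49 with a term for arrays 1 and 2 against 3 and 4), with a smallest adjusted p of 0.0514 and 1314 genes at an unadjusted p under 0.05, where the comparison on L-NAME had 1521. Of the 99 genes that rose on L-NAME, 73 were also positive for AngII alone, with a median of 0.19, and of the 73 that fell 40 were negative, with a median of -0.05; over all genes 50.9% were positive with a median of 0.01. Angptl7 read 9.04, 8.91, 11.28 and 8.96 on the AngII arrays and 8.91, 8.23, 7.44 and 8.59 on the Control arrays, a difference of 1.26 ± 0.55 (adjusted p = 0.311). For Nox4 these values were 7.74, 7.30, 9.47 and 6.99 with AngII and 6.96, 7.201, 7.200 and 7.09 in Control, with 0.76 ± 0.39 (adjusted p = 0.395). In both genes AngII array 3 was high and the other 3 arrays lay near Control. Lcn2 had 1.43 ± 0.38 (adjusted p = 0.121), close to its difference on L-NAME, and Map3k6 0.86 ± 0.21 (adjusted p = 0.111). Sphk1, by contrast in value, read 8.98, 9.14, 9.15 and 8.74 with AngII alone and 8.86, 9.55, 9.04 and 8.80 in Control, a difference of -0.059 ± 0.21.

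**Figure D5:**
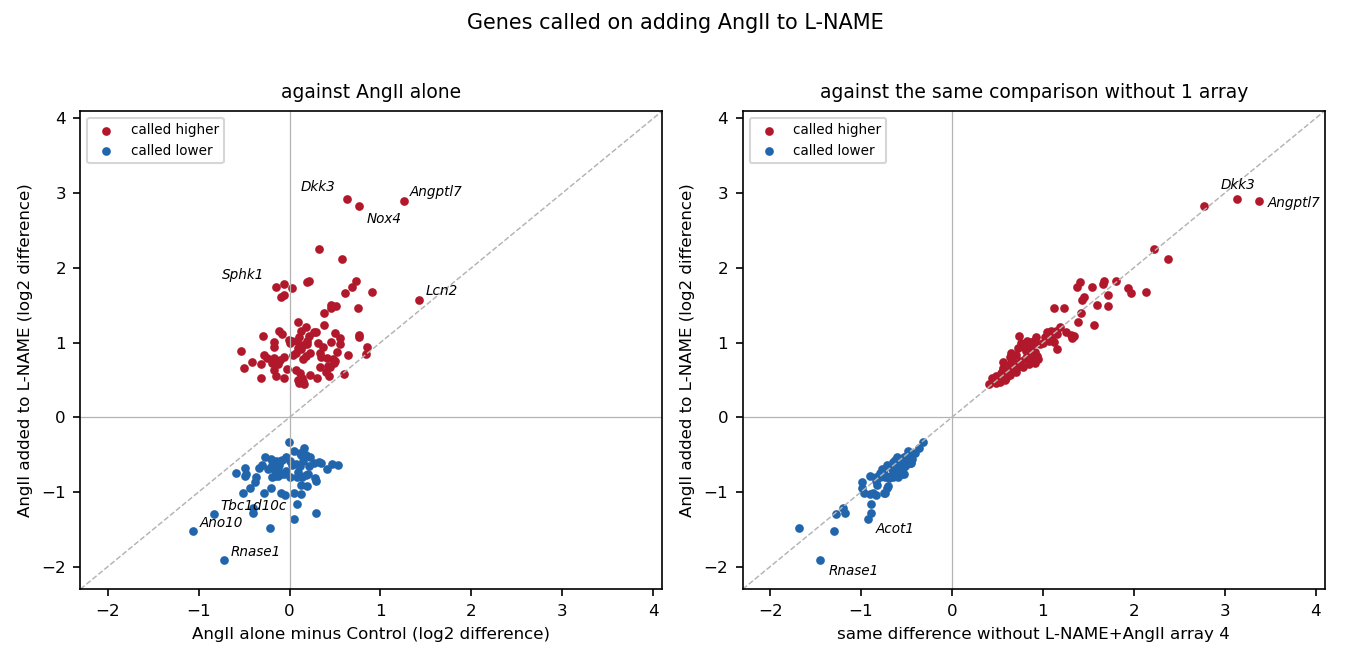
Log2 difference on adding AngII to L-NAME (vertical) for the 172 called genes against AngII minus Control (left) and against the same comparison without L-NAME+AngII array 4 (right); red genes rose, blue genes fell, and the dashed line marks equal values. On the left most points lie within 1 unit of 0 on the horizontal axis, and on the right they follow the line.

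Whether the effect of AngII differs with and without L-NAME was tested as the difference of the 2 effects. The limma test of this difference called 0 of 9119 genes (42 with the replicate block, and 80 with the term for arrays 1 and 2 against 3 and 4), with a smallest adjusted p of 0.0548 and 1493 genes at an unadjusted p under 0.05. Without L-NAME+AngII array 4 it called 51 genes (0.559%), 26 positive and 25 negative, and 31 of them were among the 172. The 172 genes are 1.89% of genes tested. They were chosen by a comparison that is itself part of this difference, so overlap is built in and gives no separate support. Sphk1 had a difference of effects of 1.85 (adjusted p = 0.0548; 95% interval 1.20 to 2.50) and 1.72 (adjusted p = 0.0359) without array 4. Dkk3 had 2.29 (adjusted p = 0.0619) and 2.51 (adjusted p = 0.0359) without it. Among falls, Slc25a42 had -1.14 (adjusted p = 0.0548) and, without array 4, -1.13 (adjusted p = 0.0359). Phkg1 had -1.27 (adjusted p = 0.0726) and, without array 4, -1.47 (adjusted p = 0.0359). Ano10 and Tbc1d10c had smaller values, -0.47 (adjusted p = 0.516; interval -1.17 to 0.23) and -0.46 (adjusted p = 0.430; interval -1.05 to 0.13), and their effects of AngII alone were -1.06 and -0.83. Without array 4 the AngII-alone comparison called 137 genes (1.5%), 86 higher and 51 lower, although it uses no array of that group: only the shared estimate of the spread differs between these fits. In 17 genes both comparisons then passed, 16 of them with the same sign.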

How the data were processed

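Per the labels' protocols, RNA purified on RNeasy columns was converted to biotin-labelled cRNA and hybridised to Illumina arrays. The submitters' processing notes name GenomeStudio and lumi; their versions, any background subtraction and the kind of log transform are not given here or in the labels. What the authors deposited are log2 values for 25697 probes, already quantile normalised, since the sorted columns never differed by more than 0.00132. A further table was set aside because the names of its 64 sample columns match no label. The platform annotation gave 1 symbol to 23978 probes, several to 0 and none to 1719, and 23962 probes were found in the reference gene table through their Entrez identifier.

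The background level (7.13) was the 95th percentile over 1362 chemosensory receptor probes, whose median was 5.99. Probes above it on 4 or more of the 16 arrays were tested (13020), with the brightest probe on average taken for each gene, which left 9119 genes, 2277 of them with further probes. limma 3.58.1 in R 4.3.3 fitted the 4 group means to the 16 arrays; its moderated two-sided test had 12 residual plus 3.15 prior degrees of freedom, and p-values were adjusted over all genes by Benjamini-Hochberg with a threshold of 0.05. If a whole group was below background, its fold was computed against the background level and is a lower bound. The gene lists (31 pathway lists and 12 marker lists) hold 1236 entries: 928 were tested, 189 were too dim and 119 had no probe analysed here. Lists carry no test of their own.

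Genes were named if they had 1 of the 12 highest or 12 lowest differences among called genes with groups that did not overlap, if they were among the 4 smallest adjusted p-values of the called members of a list, or if they belonged to a short set named whatever its values. No gene passed for the difference of effects, which would have added names. Further list members are given to show the rest of a list and were chosen after their values were seen. Xist, Y-linked genes, chemosensory receptors, clone names and predicted models were left unnamed. Members, lists and rules were chosen with earlier results of these data known.

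The 4 groups share replicate numbers. Residuals of same-numbered arrays correlated in each of 24 pairs, from 0.115 up to 0.452 with a median of 0.281. Differently numbered arrays had a median of 0.232 inside the sets 1 and 2 or 3 and 4, and of -0.258 between the sets. The shared deviation thus followed mainly the sets. Because the numbers may pair the samples, the block is given beside the count of called genes. Unless stated, SEs, adjusted p-values and list counts come from the fit without block. With the block 6 genes of the fatty acid list fell and 6 of the protease list rose, while the channel list again had 5 falls. Alternatives were: no filter, a stricter filter (8 of 16 arrays) or one on the 8 arrays compared, all probes separately, trended robust variances, weights for arrays, cyclic loess, only the 8 arrays, the block, the sets as a term, the mean of Myl4, Myl7 and Sln as a covariate, and leaving out each array. In simulated data for the comparison on L-NAME (9119 genes, 50 changed at each size), limma recovered 19 at 1.5-fold, 43 at 2-fold, 47 at 4-fold and 50 at 8-fold. It called 167 genes in that comparison, 8 of them unchanged. In the same simulated data, where the changes were made in L-NAME+AngII alone, it called 0 genes for AngII alone and 134 for the difference of effects. How these recovery and call counts change when an array stands apart, or when arrays deviate together, was not tested. Tables and figures were made with Python 3.11.15, pandas 2.3.3 and matplotlib 3.10.9.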

Additional observations from a re-analysis of the deposited data

Results flagged for a closer look

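In 14 of 164 groups of 4 arrays among the named genes, 1 array lay further from the other 3 than Dixon's 95% critical value allows; chance gives about 1 in 20 such groups. L-NAME+AngII array 4 was that array in 9 of the 14. It was the lowest of its group for Acot1 (11.19, others 12.85 to 13.01), Kcnv2 (7.66, others 9.10 to 9.33), Ces1d (11.90, others 12.93 to 13.02), Aldh1l2 (7.01, others 7.85 to 7.89), Serpinf1 (11.99, others 12.95 to 12.99), Itgbl1 (10.70, others 11.58 to 11.65), Bgn (13.99, others 14.41 to 14.48) and Pdk4 (11.85, others 14.59 to 14.82). It was the highest for Hadh, at 9.67, against 8.98 to 9.06. L-NAME+AngII array 1 was the highest for Slc25a42, at 9.10, against 8.85 to 8.89.

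In the L-NAME group, array 4 was the lowest for Zmat1 (9.496, others 9.76 to 9.81) and for Tgfb2 (8.31, others 8.52 to 8.55). L-NAME array 3 was the highest for Col3a1 (10.19, others 9.56 to 9.63) and the lowest for Hadh (9.53, others 9.81 to 9.85). The cause of these values was not tested.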

How the results depend on the processing

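The 172 genes called on adding AngII to L-NAME became 280 with a trended robust variance, 478 with array weights and 262 with the replicate block. They became 293 with the term for arrays 1 and 2 against 3 and 4 and 67 with the atrial covariate. A fit of the 8 arrays alone, which takes the spread from those arrays only, called 51. Between 118 and 210 passed under other filters, every probe and cyclic loess, and 82 to 216 with 1 array left out. For AngII alone, where 0 passed, the counts were 7 with no filter, 19 with the stricter filter, 19 with the filter on the 8 arrays compared, 138 (trended), 177 (weights), 18 (cyclic loess), 56 (block), 49 (term for sets), 13 (covariate) and 0 to 137 with 1 array left out, the highest without L-NAME+AngII array 4. The difference of both effects, also 0, gave 24 with the stricter filter, 25 with the filter on the 8 arrays compared, 156 (trended), 179 (weights), 42 (block), 80 (term for sets) and 0 to 51 with 1 array left out. Causes were not tested.

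Of the 61 named genes that passed, 61 kept the call under the block, the trended variance, array weights, cyclic loess and the term for sets, 48 with no filter, 31 with the covariate, 26 in the 8-array fit and 37 to 58 with 1 array left out; 0 changed sign. The block changed no call of the 21 other named genes. Sign changes were confined to genes that did not pass. With the covariate Nppb had -0.10, Myh6 -0.052, Ccn2 0.058, Col3a1 -0.19 and Agtr1a 0.021. Myh7 had 0.80 with array weights and 0.00447 with cyclic loess, and Atp2a2 0.00158 with cyclic loess. With 1 array left out the ranges were -0.066 to 0.078 for Nppb, -0.51 to 0.52 for Myh7, -0.045 to 0.015 for Atp2a2 and -0.93 to 0.058 for Pdk4. With 4 arrays a group and signal near background for dim genes, a difference that missed the threshold does not show that the groups were alike.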

Other observations

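Some called genes outside the lists and the naming rule are given here; they were chosen after their values were seen. Uck2, a uridine-cytidine kinase of the pyrimidine salvage pathway, had the smallest adjusted p of the comparison (0.000242). It read 13.53, 13.37, 13.64 and 13.53 on the L-NAME+AngII arrays and 12.47, 12.52, 12.70 and 12.48 on the L-NAME arrays, a rise of 0.97 ± 0.094, and 0.97 without array 4. Csrp2, a LIM-domain protein, read 11.60, 11.79, 11.54 and 11.81 with AngII added and 10.49, 10.49, 10.68 and 10.82 with L-NAME alone, with 1.07 ± 0.14 (adjusted p = 0.000867; 1.03 without array 4). Gpnmb, a glycoprotein of macrophages and other phagocytes, rose by 1.47 ± 0.24 (adjusted p = 0.00492; 1.24 without array 4) and the membrane protein Emp1 by 1.12 ± 0.18 (adjusted p = 0.00481; 1.16 without array 4). The prostacyclin synthase Ptgis rose by 1.02 ± 0.18 (adjusted p = 0.00963; 1.06 without array 4) and the channel protein Panx1 by 1.15 ± 0.20 (adjusted p = 0.00826; 1.15 without array 4). These 6 genes passed whichever array was left out.

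Among further falls, Acot3, an acyl-CoA thioesterase related to Acot1, was below background on all 4 L-NAME+AngII arrays, so its fall is a bound of at least 1.18-fold (adjusted p = 0.0145); without L-NAME array 1 its adjusted p was 0.0581. Mlxipl, the carbohydrate-responsive transcription factor ChREBP, read 10.04, 10.07, 10.09 and 9.51 on the L-NAME+AngII arrays and 10.36, 10.55, 10.73 and 10.61 on the L-NAME arrays, with -0.63 ± 0.13 (adjusted p = 0.0269), while the Control arrays read 10.10, 10.20, 9.95 and 10.32; its call was lost without L-NAME array 2, 3 or 4 (up to 0.0891). G0s2, an inhibitor of adipose triglyceride lipase, fell by 0.68 ± 0.15 (adjusted p = 0.0351) and had -0.60 (adjusted p = 0.0670) without array 4, a call also lost without any of 6 other arrays (up to 0.116).

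Ecrg4, which encodes a secreted neuropeptide-like precursor, read 9.08, 8.77, 9.74 and 6.07 with AngII added and 6.65, 5.998, 5.90 and 6.27 with L-NAME alone, so that arrays 1 to 3 were high and array 4 was not. All 4 L-NAME arrays were below background, so no exact size is given for its difference. The adjusted p on L-NAME was 0.0903 with all arrays and 0.00171 without array 4.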
